A study of Homo sapiens with 4 samples.

Results

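The 10 genes described here belong to the Wnt pathway: the ligands WNT5A, WNT5B and WNT7B, the secreted inhibitor DKK1, beta-catenin (CTNNB1), the DNA-binding partners TCF7 and LEF1, the kinase TNIK, and the feedback genes AXIN2 and NKD1. They were chosen by symbol, with earlier results of these data known. They are 10 of the 58735 genes in the count table, and all 10 had reads in at least 1 library. The cells were MDA-MB-231 and SUM159, which are human triple-negative breast cancer (TNBC) lines. Each line received 1 μM mebendazole (MBZ), an antiparasitic benzimidazole that binds tubulin, or its solvent DMSO with no MBZ, for 72 h. RNA-seq was done on 1 library for each line and treatment, 4 in all, with total counts of 24897586 (MDA-MB-231, DMSO), 17143139 (MDA-MB-231, MBZ), 18708179 (SUM159, DMSO) and 18904501 (SUM159, MBZ). At these depths, taking 3 counts as the limit, a count of 0 allows a level of up to 0.120 to 0.175 CPM (counts scaled to library size) by total counts. The CPM levels below are also scaled by TMM, so this limit is approximate for them.

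Wnt ligands are secreted lipid-modified proteins that bind Frizzled receptors and the co-receptors LRP5 and LRP6. In the absence of a ligand, a destruction complex built on AXIN and APC marks beta-catenin for degradation. When a ligand is bound, beta-catenin accumulates, enters the nucleus and acts with TCF/LEF proteins on target genes, several of which encode inhibitors of the same pathway. WNT5A and WNT5B are known mainly for signalling that does not use beta-catenin, and are often studied in breast cancer for effects on cell movement.

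Changes are given as log2 fold changes of MBZ over DMSO within a line, from counts scaled by TMM, and the bracketed range is a 95% Clopper-Pearson interval for the reads of those libraries. It covers counting error only, and since each condition has 1 library, these changes have no replicate check. A gene was compared where the 2 libraries had a mean of at least 10 counts, and it was called higher or lower at a fold change of 1.5 or more. In MDA-MB-231 1 of 8 compared members was higher (18.3% of all 15142 genes) and 3 were lower (15.8%). In SUM159 4 of 9 were higher (21.5% of 15674 genes) and 2 were lower (21.7%). Among the higher, LEF1 and NKD1 had fewer than 10 counts with DMSO and passed the limit through the library with MBZ. At a mean of at least 100 counts, 2 members were higher and 1 lower in SUM159. Scaling by total counts gave 1 higher and 1 lower in MDA-MB-231, and 6 higher and 1 lower in SUM159. That scaling moves all genes up alike, to 4408 higher and 1146 lower in MDA-MB-231 and 5135 and 2004 in SUM159, and the list counts given with it below stand beside these. DKK1 was higher in both lines and AXIN2 was lower in both, though by total counts AXIN2 fell short of 1.5-fold in MDA-MB-231. Among 13733 genes compared in both lines, 6.12% were higher in both, against 1 of 7 members, and 4.71% were lower in both, against 1 of 7. The median log2 fold change of the compared members was -0.53 in MDA-MB-231 and 0.44 in SUM159, beside -0.02 and -0.03 for all genes. Scaling by total counts moves the medians of members and of all genes up by 0.27 and 0.30.

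Levels are compared between genes in CPM per kb of exon, with TMM scaling over the 4 libraries. With DMSO, MDA-MB-231 had CTNNB1 at 61.8 CPM per kb, then DKK1 at 45.3, WNT7B at 12.4, WNT5B at 6.37, AXIN2 at 2.79, LEF1 at 2.17, TNIK at 1.15 and TCF7 at 0.614. WNT5A (0.0481) and NKD1 (0.0149) came last, each from fewer than 10 counts. With DMSO, SUM159 had CTNNB1 at 25.3 CPM per kb, then DKK1 at 9.87, WNT5A at 6.90, WNT7B at 3.61, AXIN2 at 1.35, TCF7 at 0.760, TNIK at 0.258, LEF1 at 0.101, WNT5B at 0.0854 and NKD1 at 0.0209. The main difference between the orders was the exchange of WNT5A and WNT5B. Neighbours in these orders were not tested against each other. With DMSO, 7 of 9 compared members were at least 1.5-fold higher in MDA-MB-231, as were 30.6% of 15559 genes, and 1 of 9, WNT5A, was higher in SUM159, as were 31.0%. TCF7 was the member within 1.5-fold between the lines. NKD1 had too few reads for this comparison.

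**Figure D1:**
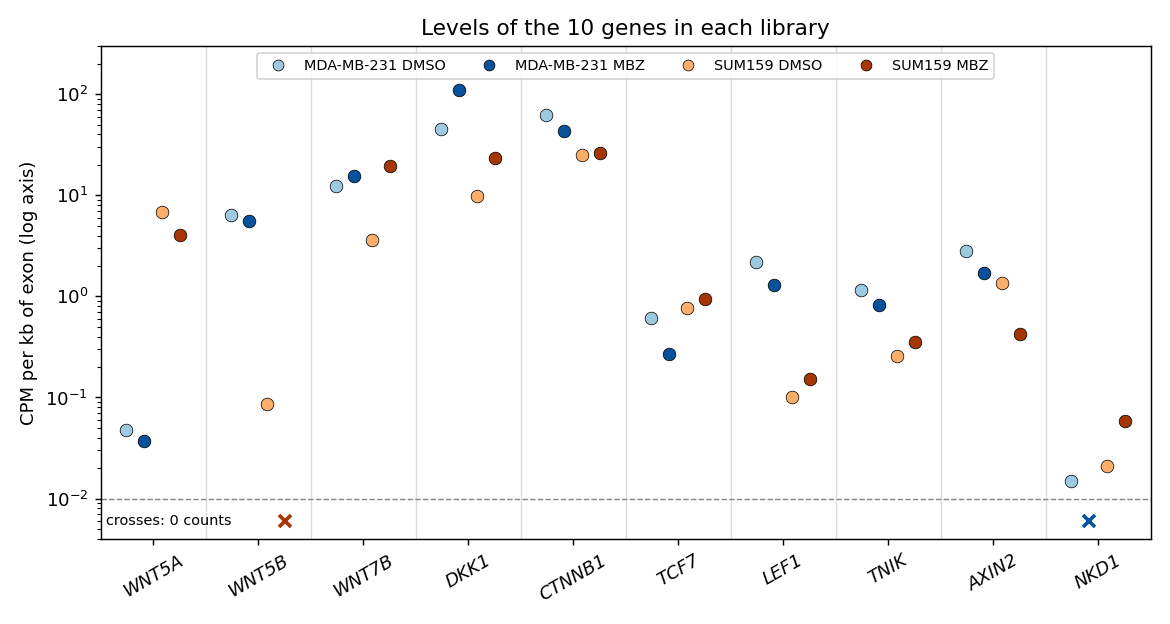
Level of each of the 10 genes in each of the 4 libraries, in CPM per kb of exon on a log axis, with crosses for libraries at 0 counts. CTNNB1 and DKK1 are the highest of the 10 genes in each library, and WNT5A and WNT5B are each high in 1 line and near 0 in the other.

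WNT5A (ENSG00000114251, chromosome 3, 55465715 to 55490539, minus strand, GRCh38) had 8 counts (DMSO) and 5 (MBZ) in MDA-MB-231, and 818 and 595 in SUM159. With DMSO its level in SUM159 was 141-fold that in MDA-MB-231, a log2 ratio of 7.14 (interval 6.18 to 8.38). The gene was therefore expressed almost wholly in SUM159, where the count was lower with MBZ. There the log2 fold change was -0.78 (interval -0.93 to -0.62), a level 1.71-fold lower, and -0.47 with scaling by total counts, which is short of 1.5-fold. The reads in MDA-MB-231 were too few for a comparison of treatments.

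WNT5B (ENSG00000111186, chromosome 12, 1529891 to 1647212, plus strand), the closest relative of WNT5A, had the opposite distribution, with 628 and 446 counts in MDA-MB-231 and 6 and 0 in SUM159. With DMSO its level was 73.3-fold higher in MDA-MB-231. Within MDA-MB-231 the log2 change of -0.22 (interval -0.40 to -0.04) was smaller than 1.5-fold, and its sign turned with scaling by total counts (0.04). In SUM159 the level with MBZ was at least 2.49-fold lower when 3 counts stand in for the 0, a bound that leaves out the counting error of the 6 reads. Each line thus had 1 of the 2 WNT5 transcripts at several CPM per kb and the other near the limit of detection.

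WNT7B (ENSG00000188064, chromosome 22, 45920366 to 45977162, minus strand), a ligand that can signal through beta-catenin, had 1470 counts (DMSO) and 1485 (MBZ) in MDA-MB-231. In SUM159 it had 304 and 2056 counts. The SUM159 library with DMSO stood low, and the other 3 lay between 12.4 and 19.6 CPM per kb. The log2 fold change was 2.44 (interval 2.27 to 2.62) in SUM159, 5.43-fold, which ranked 469 from the top of 15674 genes. In MDA-MB-231 it was 0.29 (interval 0.18 to 0.39), under 1.5-fold. The 2 responses differed by 2.15 on the log2 scale (counting interval 1.95 to 2.36), a difference with no replicate check.

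In SUM159 the ligand with the largest share of the Wnt transcripts was not the same in the 2 libraries, and in MDA-MB-231 it was WNT7B in both. Over the 19 human Wnt genes the summed level was 23.8 CPM per kb (DMSO) and 27.0 (MBZ) in MDA-MB-231, and 16.9 and 31.5 in SUM159. WNT7B held 52.2% and 56.9% of the sum in MDA-MB-231. In SUM159 WNT5A led with DMSO (40.9%, beside 21.4% for WNT7B), and WNT7B led with MBZ (62.3%, beside 12.8% for WNT5A). Of the 19 ligands, 3 of 7 compared in MDA-MB-231 were higher and 0 were lower, and in SUM159 3 of 9 were higher and 3 lower, or 4 and 1 with total-count scaling. Among those higher in MDA-MB-231, WNT11 (1 and 25 counts) passed the limit of 10 through the library with MBZ. Among those lower in SUM159, WNT6 (32 and 6 counts) passed it through the library with DMSO. WNT9A, the 1 ligand above 1.5-fold in both lines with TMM, went from 155 to 194 counts (log2 fold change 0.60, interval 0.28 to 0.91) and from 62 to 260 (1.75, interval 1.35 to 2.18). It was 1.51-fold in MDA-MB-231, close to the threshold, and with DESeq2 size factors it fell short there, leaving 2 of 7 ligands higher. By total counts WNT11 was above 1.5-fold in both lines too, on 1 and 25 counts in MDA-MB-231 and 10 and 17 in SUM159. For ligand secretion, WLS and PORCN gave 1 of 2 higher and 0 lower in MDA-MB-231 and 0 in either direction in SUM159.

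**Figure D2:**
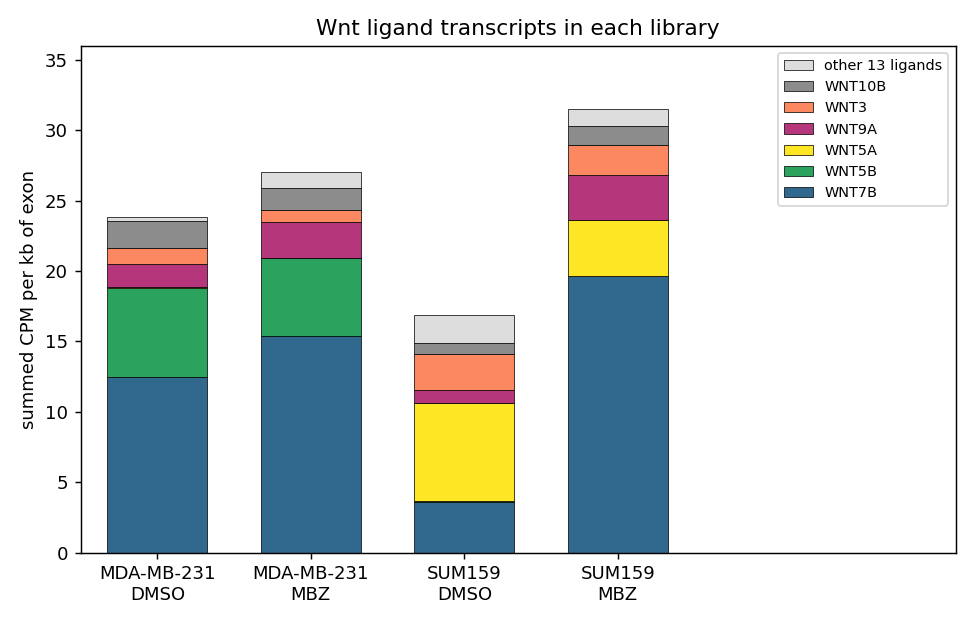
Summed level of the 19 Wnt ligands in each library, in CPM per kb of exon, split by ligand, with the 13 ligands not named in the key as 1 segment. WNT7B is the main segment except in SUM159 with DMSO, where WNT5A is larger (6.90 against 3.61 CPM per kb).

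Of the 16 receptors and co-receptors, 2 of 13 compared were higher in MDA-MB-231 and 3 lower, and 1 of 15 was higher and 5 lower in SUM159. Scaled by total counts, these numbers were 2 and 2, and 2 and 3. LRP5, the co-receptor that DKK1 binds, had 21161 and 8595 counts in MDA-MB-231 and 3313 and 2085 in SUM159. Its log2 fold changes were -1.03 and -0.98, so that it was lower in both lines. PTK7, a co-receptor of the planar polarity branch, was also lower in both (-1.20 and -1.58). The receptors called higher were FZD4 (1.24, interval 1.00 to 1.48) and ROR1 (0.61) in MDA-MB-231, and FZD8 (0.70) in SUM159. FZD4 had 219 and 428 counts in MDA-MB-231, and shares 1399 exonic bases with a gene on the opposite strand. The R-spondin module, whose receptors and ligases set the amount of Frizzled at the surface, had 0 of 4 higher and 1 of 4 lower in each line, and 0 lower with total-count scaling.

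DKK1 (ENSG00000107984, chromosome 10, 52314281 to 52318042, plus strand) encodes Dickkopf-1, which blocks Wnt signalling by binding LRP5 and LRP6 and is itself a known beta-catenin target. It had 2337 counts (DMSO) and 4684 (MBZ) in MDA-MB-231, and 363 and 1080 in SUM159. Per length this was 45.3, 111, 9.87 and 23.6 CPM per kb, so that in each line the library with MBZ was the higher. MBZ over DMSO gave a log2 fold change of 1.28 (interval 1.20 to 1.35) in MDA-MB-231 and 1.26 (interval 1.08 to 1.43) in SUM159, 2.42-fold and 2.39-fold. They ranked 912 from the top of 15142 genes and 1542 from the top of 15674. The difference between the 2 responses was -0.02 (counting interval -0.20 to 0.17). The baseline differed more than the response: with DMSO the level was 4.59-fold higher in MDA-MB-231.

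DKK1 shares 227 exonic bases at its start with the antisense lncRNA PRKG1-AS1, which had 27, 58, 6 and 17 counts in the same order of libraries. Whether the reads were counted by strand is not given in the sources used here, so reads in the shared bases cannot be told apart. PRKG1-AS1 had log2 fold changes of 1.37 and 1.17, above 1.5-fold in both lines, the latter with an interval that includes 0. Its part in the counts of DKK1 was not tested. Of the 14 secreted inhibitors and their co-receptors, in MDA-MB-231 2 of 5 compared were higher and 2 lower, and 1 of 7 was higher and 4 lower in SUM159 (2 and 3 by total counts). In MDA-MB-231 the calls of SOST (12 and 18 counts, higher) and KREMEN2 (28 and 12, lower) had intervals that include 0. DKK1 made up 96.1% and 98.6% of the summed level per length of this list in MDA-MB-231. In SUM159 DKK3 held the largest share with DMSO (50.7%) and DKK1 with MBZ (50.3%). These SUM159 shares are uncertain, since DKK3 has 5681 of its 11958 exonic bases in common with a gene on the opposite strand. DKK3 and NOTUM went the opposite way from DKK1 in SUM159: DKK3 had 5259 and 3754 counts (-0.80, interval -0.86 to -0.74, and -0.50 by total counts, short of 1.5-fold) and NOTUM had 113 and 12 (-3.54, interval -4.55 to -2.69). KREMEN1, a co-receptor of DKK1, was lower in both lines (-1.33 and -1.35).

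The promoters are shown because DKK1 and TCF7 were the members with TCF/LEF core words just before an annotated start. RefSeq start sites on GRCh38.p14 gave 11 windows of 250 bases before the start for 7 of the 10 members, and none was used for WNT7B, AXIN2 and NKD1. The 7-letter words searched, on both strands, were CTTTGAA, the form CTTTGAT, the form CTTTGTA and the form CTTTGTT, and matches are in capitals. Of all 35116 such windows, 12.0% hold a match, and 2 of the 11 member windows do. The DKK1 window (chr10:52314031-52314280, plus strand) lies in an exon of PRKG1-AS1, with matches that begin 95 and 76 bases before the start.
DKK1: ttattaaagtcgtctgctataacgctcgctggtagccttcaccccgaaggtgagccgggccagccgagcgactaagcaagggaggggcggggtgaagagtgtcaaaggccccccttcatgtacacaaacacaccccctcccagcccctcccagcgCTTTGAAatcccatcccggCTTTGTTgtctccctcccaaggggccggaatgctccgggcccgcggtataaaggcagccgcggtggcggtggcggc
The TCF7 window (chr5:134123368-134123617, plus strand) precedes an internal start and lies in an intron of the longer transcripts, and its match, the reverse complement of CTTTGTT, begins 50 bases before the start.
TCF7: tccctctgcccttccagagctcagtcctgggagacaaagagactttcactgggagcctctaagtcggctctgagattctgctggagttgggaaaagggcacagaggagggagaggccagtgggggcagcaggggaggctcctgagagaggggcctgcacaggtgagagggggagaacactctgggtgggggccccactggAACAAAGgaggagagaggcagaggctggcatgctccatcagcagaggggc
A match describes these letters only, and the counts do not show which start was used.

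Among the 17 genes of the Dishevelled proteins and the destruction complex, in MDA-MB-231 0 were higher and 2 lower, and 1 was higher and 1 lower in SUM159. By total counts 0 were lower in MDA-MB-231, and 2 were higher and 1 lower in SUM159. AXIN2 (ENSG00000168646, chromosome 17, 65528563 to 65561648, minus strand) was the gene lower in both lines with TMM. It encodes a scaffold of the complex and is a widely used target gene of beta-catenin that feeds back on the pathway. AXIN2 had 337 counts (DMSO) and 169 (MBZ) in MDA-MB-231, and 116 and 46 in SUM159, or 2.79, 1.71, 1.35 and 0.429 CPM per kb. In each line the library with MBZ was the lower, and SUM159 with MBZ had the lowest level.

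The log2 fold change of AXIN2 was -0.72 (interval -0.998 to -0.45) in MDA-MB-231, 1.65-fold lower, and -0.46 with scaling by total counts, which is short of 1.5-fold. In SUM159 it was -1.65 (interval -2.18 to -1.15), 3.13-fold lower. The responses differed by -0.92 (counting interval -1.49 to -0.36). AXIN1, the constitutive relative, had 1314, 1072, 1396 and 1754 counts, with log2 fold changes of -0.02 and 0.01. The annotation places 1316 exonic bases of AXIN2 also in ENSG00000266076 on the same strand, which had 0 counts in the 4 libraries. Both genes are in the count table, so both were in the annotation that was counted, though its release and exons are not given. HTSeq's union mode leaves reads in shared bases uncounted as ambiguous, so that the level of AXIN2 per length may be understated.

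CTNNB1 (ENSG00000168036, chromosome 3, 41194741 to 41260096, plus strand) encodes beta-catenin, which acts both at adherens junctions and in the nucleus. Its counts were 16891 (DMSO) and 9600 (MBZ) in MDA-MB-231, and 4929 and 6416 in SUM159. Per length these were 61.8, 42.9, 25.3 and 26.5 CPM per kb, so that both MDA-MB-231 libraries were above both SUM159 libraries. Its change on the log2 scale was -0.54 (interval -0.58 to -0.51) in MDA-MB-231 and 0.06 (interval 0.01 to 0.12) in SUM159. Neither reached 1.5-fold, although with DESeq2 size factors the value in MDA-MB-231 was -0.59, just past it. The high depth makes these intervals narrow, and they say nothing of the spread between cultures. RNA levels do not show the amount of beta-catenin protein, which is regulated mainly by degradation.

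TCF7 (ENSG00000081059, chromosome 5, 134114681 to 134151865, plus strand) encodes TCF-1, a DNA-binding partner of beta-catenin. It had 144 counts (DMSO) and 52 (MBZ) in MDA-MB-231, and 127 and 197 in SUM159, or 0.614, 0.271, 0.760 and 0.946 CPM per kb. The MDA-MB-231 library with MBZ was thus the low one of 4. On the log2 scale the change was -1.20 (interval -1.68 to -0.73) in MDA-MB-231, 2.29-fold lower. In SUM159 it was 0.32, with an interval that includes 0 (-0.01 to 0.65), and 0.62 with scaling by total counts, which is past 1.5-fold. The responses differed by 1.51 (counting interval 0.95 to 2.07). TCF7 shares 210 exonic bases with SKP1 on the opposite strand, which had 4109, 3147, 2645 and 2950 counts and log2 fold changes of -0.11 and -0.16.

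LEF1 (ENSG00000138795, chromosome 4, 108047545 to 108168956, minus strand), a TCF relative that is also a target of the pathway, was found mainly in MDA-MB-231. It had 271 counts (DMSO) and 133 (MBZ) there, and 9 and 17 in SUM159. With DMSO the level was 21.2-fold higher in MDA-MB-231. The log2 fold change was -0.75 (interval -1.06 to -0.45) in MDA-MB-231, and -0.49 with scaling by total counts, short of 1.5-fold. In SUM159 it was 0.60 (interval -0.64 to 1.95), which is 1.51-fold on a mean of 13 counts and was not distinguishable from 0 at this depth, and 0.52 with a prior count of 2, short of 1.5-fold. By the 1.5-fold rule, LEF1 was the 1 of 7 members called lower in MDA-MB-231 and higher in SUM159. Of all genes compared in both lines, 3.12% were called so. For LEF1 this placing does not show opposite responses, since its SUM159 value was not distinguishable from 0. The placing was lost with a prior count of 2, and also with scaling by total counts.

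The whole nuclear list of 16 genes had 2 of 15 higher and 5 lower in MDA-MB-231, and 1 of 16 higher and 5 lower in SUM159. The numbers by total counts were 3 and 3 in MDA-MB-231, and 4 and 4 in SUM159. BCL9, a co-activator that binds beta-catenin, was lower in both lines (-0.89 and -1.32). Of the remaining TCF genes, TCF7L2 had 1040, 605, 402 and 344 counts (-0.51 and -0.54) and TCF7L1 had 46, 36, 79 and 23 (-0.08 and -2.09). Per length TCF7L2 was above TCF7 and LEF1 in each library, from 2.48 to 6.64 CPM per kb. The co-repressor TLE2 had 3057 and 332 counts in SUM159, a log2 change of -3.52 (interval -3.69 to -3.36), and 15 and 20 counts in MDA-MB-231. There TLE2 is among those called higher, with an interval that includes 0 (-0.35 to 1.76).

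TNIK (ENSG00000154310, chromosome 3, 171058414 to 171460408, minus strand, 33 exons in the canonical transcript) encodes a serine/threonine kinase that binds TCF7L2 and beta-catenin and is needed for transcription of Wnt targets in colorectal cancer cells. It had 305 counts (DMSO) and 177 (MBZ) in MDA-MB-231, and 49 and 83 in SUM159, or 1.15, 0.813, 0.258 and 0.352 CPM per kb. Both MDA-MB-231 libraries were above both SUM159 libraries, and with DMSO the level was 4.43-fold higher in MDA-MB-231. TNIK had a log2 fold change of -0.51 (interval -0.79 to -0.24) in MDA-MB-231. In SUM159 it was 0.44, with an interval that includes 0 (-0.08 to 0.98). Neither reached 1.5-fold, although scaling by total counts gave 0.74 in SUM159, which does. The responses differed by 0.96 (counting interval 0.38 to 1.53).

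TNIK was the least abundant per length of the 3 kinases of its family compared here. MAP4K4 had 7027, 7145, 4165 and 6905 counts and was the most abundant of the 4 kinases per length, between 21.0 and 31.4 CPM per kb. MINK1 lay between 11.8 and 18.7 CPM per kb. The log2 fold changes were 0.30 and 0.41 for MAP4K4 and -0.29 and -0.01 for MINK1, so 0 of 3 compared kinases were called in either line. With total-count scaling 2 of 3 were higher in SUM159. NRK had at most 4 counts in any library.

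NKD1 (ENSG00000140807, chromosome 16, 50548396 to 50649249, plus strand) encodes a feedback inhibitor that binds Dishevelled. It had 6 counts (DMSO) and 0 (MBZ) in MDA-MB-231, and 6 and 21 in SUM159. In MDA-MB-231 the level with MBZ was at least 1.66-fold lower when 3 counts stand in for the 0, without the counting error of the 6 reads. With that error included, the interval of the log2 fold change includes 0 (upper end 0.04). The log2 fold change in SUM159, 1.47 (interval 0.13 to 3.09), rests on a mean of 13.5 counts. That mean passed the limit of 10 through the library with MBZ. Its relative NKD2 was not read in MDA-MB-231 (0 counts in both libraries), and had 1015 and 207 counts in SUM159, a log2 change of -2.61 (interval -2.83 to -2.39). The counts of the 2 relatives differed in opposite directions in SUM159, a description that rests on few reads of NKD1.

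Of the 21 listed beta-catenin targets, in MDA-MB-231 3 of 16 compared were higher and 6 lower, and 6 of 17 were higher and 4 lower in SUM159. Of those higher in SUM159, LEF1, NKD1 and EPHB3 had fewer than 10 counts with DMSO and passed the limit through the library with MBZ. Scaled by total counts, MDA-MB-231 had 4 higher and 2 lower, and SUM159 had 9 and 4. The members on this list did not move as a block: DKK1 was higher and AXIN2 lower in both lines, and LEF1 and TCF7 were lower in MDA-MB-231. By total counts AXIN2 and LEF1 fell short of 1.5-fold in MDA-MB-231. BAMBI, a pseudoreceptor, had 58 and 240 counts in SUM159 (1.73, interval 1.31 to 2.17) and log2 fold change 0.24 in MDA-MB-231. EPHB2 had 21 and 97 counts in SUM159 (1.89, interval 1.20 to 2.65) and -0.12 in MDA-MB-231. In the planar polarity branch 2 of 9 were higher in MDA-MB-231 and 4 lower, and 1 of 8 was higher and 2 lower in SUM159, or 2 and 2, and 1 and 1, by total counts. The partners of beta-catenin at junctions had 0 of 7 higher and 1 lower in MDA-MB-231, beside 18.3% and 15.8% of all genes. In SUM159 they had 0 of 5 higher and 4 lower, beside 21.5% and 21.7%. By total counts they had 2 higher and 1 lower, and 1 higher and 2 lower.

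**Figure D3:**
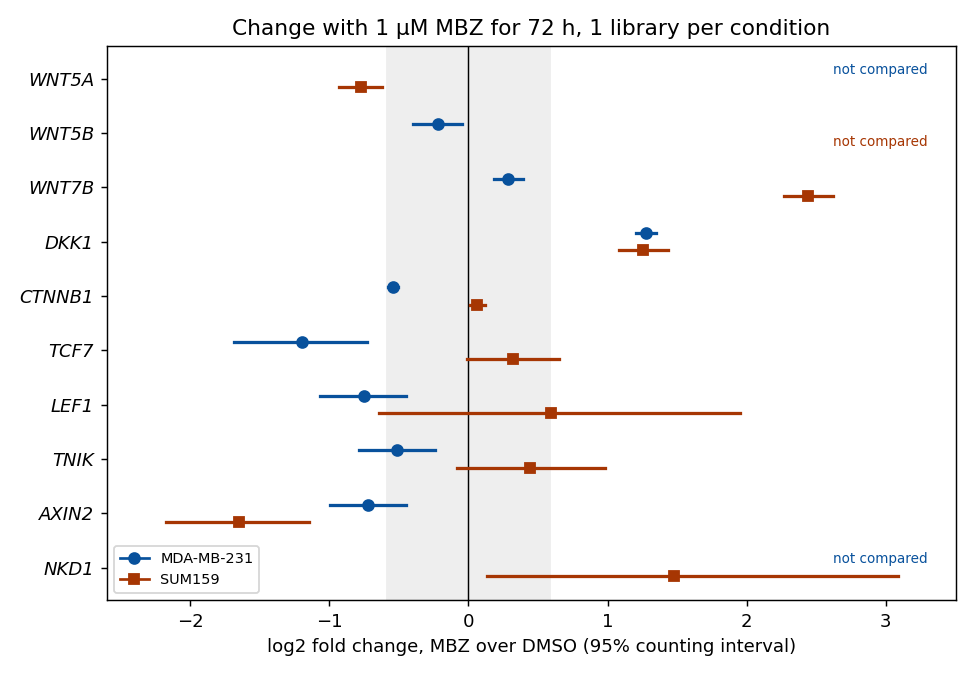
Log2 fold change of MBZ over DMSO for each gene in each line, with its 95% counting interval, and the range under 1.5-fold in grey. DKK1 lies right of the grey range in both lines and AXIN2 left of 0 in both, while WNT7B is far right in SUM159 alone (2.44).

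The difference between the lines was not tested. With the 4 libraries, a change shared by both lines was tested with edgeR's quasi-likelihood test, where the lines take the place of replicates. With Benjamini-Hochberg adjustment over 16100 genes it called 1 gene, IL24 (named for its result), or 0.00621%, and 0 of 9 members. At an unadjusted p under 0.05, 2 members were higher, DKK1 and WNT7B, and 0 were lower, beside 629 and 521 of all genes. DKK1 had a shared log2 fold change of 1.30 (SE 0.29), higher in 2 of 2 lines, with an edgeR adjusted p of 0.444, and from 0.0367 to 1.00 under the alternatives. WNT7B had 1.39 (SE 0.53), with 0.29 in MDA-MB-231 and 2.44 in SUM159, so that SUM159 alone passed 1.5-fold. For WNT7B the edgeR adjusted p was 0.657, and from 0.0322 to 1.00 under the alternatives. The values under 0.05 for DKK1 and WNT7B came with every gene of at least 1 count. AXIN2 had -1.13 (SE 0.48), lower in 2 of 2 lines, with an edgeR adjusted p of 0.701. DESeq2's Wald test also called 0 of the members. A p above the threshold does not show that these genes did not change.

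**Figure D4:**
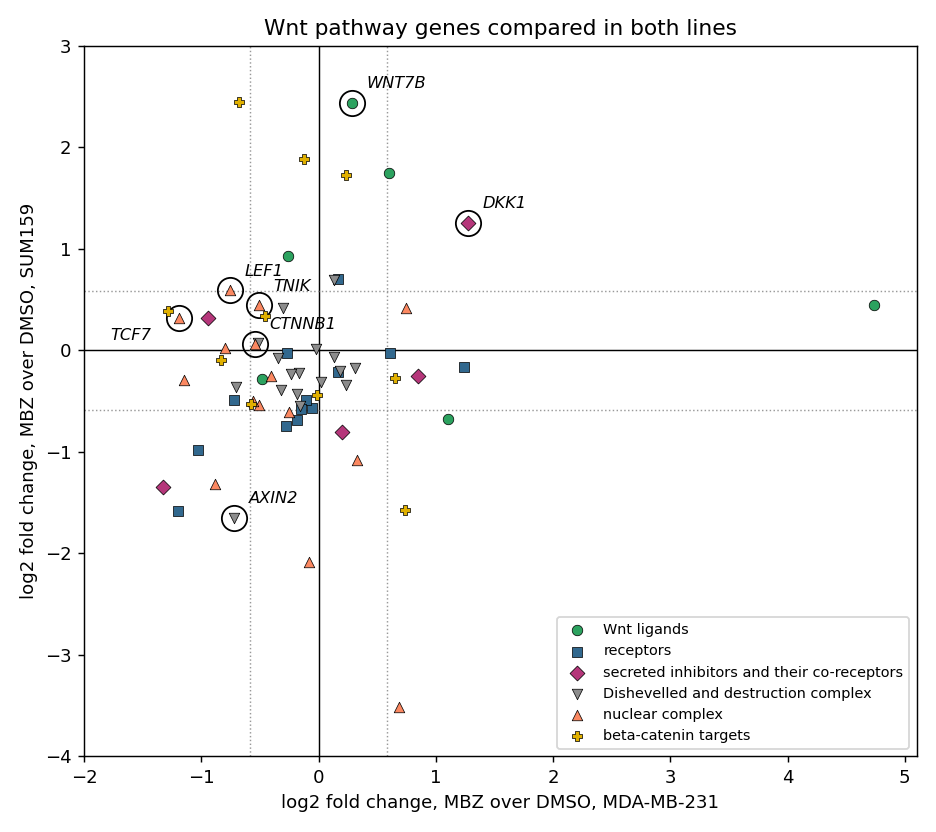
Log2 fold change of MBZ over DMSO in SUM159 against that in MDA-MB-231 for the 66 Wnt pathway genes compared in both lines, with dotted lines at 1.5-fold and the 7 members circled. A gene of several lists is drawn with the list named highest in the key; the ligand far right is WNT11, with 1 and 25 counts in MDA-MB-231.

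The genes most like each member over the 4 libraries, by Euclidean distance of centred log2 CPM among 11152 genes, are given as a description of 4 points. DKK1 was closest to EVI2A (distance 0.05), which had 270, 567, 41 and 125 counts, and then to LBH (0.17). AXIN2 was closest to NXN (0.13) and CTDSPL (0.15), CTNNB1 to DDX46 (0.03) and TADA3 (0.07), and TNIK to NUP88 (0.14) and ADGRG1 (0.15). WNT7B was closest to MAMDC4 (0.32) and TEX30 (0.37), LEF1 to PKN3 (0.25) and RRAGA (0.30), and TCF7 to NME4 (0.26) and NUDT8 (0.27). WNT5A was closest to PALD1 (0.36) and CDH2 (0.50), and WNT5B to ZNF608 (0.56) and BMP4 (0.66).

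Cell markers were checked in each library. VIM, the mesenchymal filament gene of these lines, had 47253 and 20703 counts in MDA-MB-231 and 54409 and 41720 in SUM159, and was lower with MBZ in both (-0.92 and -0.70, the latter short of 1.5-fold by total counts). The epithelial marker EPCAM had 144 and 190 counts in MDA-MB-231 (0.67, interval 0.35 to 0.995) and 6 and 9 in SUM159, and CDH1 had 11, 12, 0 and 0. Of the receptors whose absence defines TNBC, PGR had 0 counts and ESR1 had 1, 0, 2 and 18. The ESR1 value in SUM159, 2.79 (interval 0.79 to 6.01), is called higher on a mean of 10 counts. It met the limit of 10 only through the library with MBZ. ERBB2, which is judged by protein or amplification, had 1996, 1353, 1826 and 1216 counts (-0.29 and -0.90), lower with MBZ in SUM159. The 5 markers of other cell types summed to 16.0, 18.6, 52.7 and 43.3 CPM, mostly PECAM1, with CD3E and ALB at 2 counts or fewer in each library. PTPRC had 8 and 23 counts in MDA-MB-231 and 216 and 60 in SUM159, and its part in the results was not tested. The 10 proliferation genes moved with the treatment in opposite directions: 9 of 10 were lower in MDA-MB-231 (median log2 fold change -0.89, and 5 lower by total counts) and 10 of 10 were higher in SUM159 (median 2.51). Their summed level was 2755, 1487, 339 and 1392 CPM. WNT7B was higher and AXIN2 lower in SUM159 beside that rise, and the part of proliferation in these results was not tested. In bulk RNA, fewer cells that express a gene and less RNA per cell cannot be told apart.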

How the data were processed

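RNA-seq covered MDA-MB-231 and SUM159 with 1 μM MBZ or DMSO for 72 h, 1 library per condition, and grouped by the labels. The authors deposited raw read counts per gene. Their methods name GRCh38 and HTSeq in union mode, and the submitters' processing notes list STAR 2.5 and HTSeq 0.6.1. The annotation release and strand setting are not given in the sources used here. Symbols, exon lengths and coordinates came from GENCODE 44, and promoters from RefSeq. Log2 fold changes were differences of log2 CPM (edgeR 4.0.16, R 4.3.3, TMM within a line's pair, prior count 0.125), compared at a mean of at least 10 counts and called at 1.5-fold. The shared test was edgeR's quasi-likelihood test (cell line and treatment, filterByExpr, TMM over 4 libraries, Benjamini-Hochberg adjusted p under 0.05). Without molecular identifiers PCR reads are not independent molecules, so intervals and floors cover counting error only. The functions were tested on simulated counts.

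Alternatives were scaling by total counts, DESeq2 1.42.0 size factors, TMM over 4 libraries, a fold of 2, a mean of at least 100 counts, all genes with at least 1 count and a prior count of 2, and for the shared test DESeq2's Wald test, RLE, every gene with at least 1 count and no cell line. The members and lists were chosen with earlier results of these data known. All 10 members are named. From each pathway list, up to 4 genes with the largest change at a mean of at least 50 counts, the most abundant gene and relatives of a member may be named, as may genes that overlap a member and, for each member with a mean of at least 100 counts, the 2 nearest by distance. WNT11, WNT3, WNT6, IL24, TNFRSF19, EPHB3, ROR1, FZD8, SOST and KREMEN2 were named after their values were seen.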

Additional observations from a re-analysis of the deposited data

Results flagged for a closer look

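Some responses to MBZ had opposite signs in the 2 lines. The values here are log2 fold changes, and each difference is SUM159 minus MDA-MB-231. With 1 library per condition, none of these differences was tested. CTNNB1 had -0.54 in MDA-MB-231 and 0.06 in SUM159, a difference of 0.61, and neither value reached 1.5-fold. WNT2B was higher in MDA-MB-231 (1.10) and lower in SUM159 (-0.68), a difference of -1.79, on 37 and 66 counts and 58 and 45 counts. By total counts the WNT2B value in SUM159 fell short of 1.5-fold. TNFRSF19, a listed target, had 0.73 and -1.57, a difference of -2.31. EPHB3, another listed target, had -0.68 and 2.45, a difference of 3.13, with 3 and 21 counts in SUM159. In SUM159 EPHB3 passed the limit of 10 counts through the library with MBZ. By total counts the EPHB3 value in MDA-MB-231 fell short of 1.5-fold. The leukocyte marker PTPRC had 1.78 and -2.16, a difference of -3.94, on 8 and 23 counts in MDA-MB-231. There the library with MBZ took PTPRC past that limit. The median of the 10 proliferation genes differed by 3.40, from -0.89 in MDA-MB-231 to 2.51 in SUM159.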

How the results depend on the processing

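Scaling by total counts moved the all-gene median log2 fold change up by 0.27 (MDA-MB-231) and 0.30 (SUM159). Genes higher and lower then numbered 4408 and 1146 in MDA-MB-231 (2765 and 2386 with TMM) and 5135 and 2004 in SUM159 (3376 and 3403), so that the higher genes were 79.4% instead of 53.7% and 71.9% instead of 49.8% of those called. With a prior count of 2, 3 members in place of 4 were higher in SUM159, and the other counts of members were as before. Scaled by total counts, members lower went from 3 to 1 and from 2 to 1, and members higher stayed at 1 in MDA-MB-231 and went from 4 to 6 in SUM159. At 2-fold there were 1370 and 779 genes in MDA-MB-231, 1996 and 1676 in SUM159, and 1 member lower in each line. With every gene of at least 1 count the numbers were 9089 and 5693, and 11750 and 6844. At a mean of at least 100 counts, MDA-MB-231 had 1114 genes higher and 1676 lower, so that most called genes were lower (39.9% higher), and 1422 and 2250 in SUM159 (38.7% higher), where 2 members were higher and 1 lower. The shared test gave 1 gene higher and 0 lower, DESeq2's Wald test 45 and 55, every gene with at least 1 count 153 and 145, and the model without cell line 0 higher. The cause of these differences in the shared test was not tested. With every gene of at least 1 count, the edgeR adjusted p was 0.0322 for WNT7B, against 0.553 to 1.00 with edgeR and 0.616 with DESeq2's Wald test, and 0.0367 for DKK1, against 0.313 to 1.00 with edgeR and 0.0692 with DESeq2's Wald test. No called value changed sign. Of the counts of genes and members under the alternatives, 42 stayed within 1.5 times and 26 did not. Of the members' single values, 124 stayed within their error or on the same side of the test's threshold, 10 moved past their error (9 with scaling by total counts), and 2 came past the threshold. The shared test pairs the libraries by cell line, and the model without cell line is its unpaired form. Within a line no paired analysis was possible because each condition has 1 library. Depth limits LEF1, NKD1 and WNT5B in SUM159 and WNT5A and NKD1 in MDA-MB-231.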
